A study of Saccharomyces cerevisiae with 12 samples.

Results

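The yeast respiratory chain passes electrons from NADH and succinate through ubiquinone and cytochrome c to oxygen, and ATP synthase uses the resulting proton gradient to make ATP. *Saccharomyces cerevisiae* has no proton-pumping complex I. It oxidises NADH with Ndi1 on the matrix side of the inner mitochondrial membrane and with Nde1 and Nde2 on the outer side. Succinate dehydrogenase (complex II) is a separate entry point, for electrons from succinate. From ubiquinone, electrons of both sources pass through the cytochrome bc1 complex (complex III) and cytochrome c oxidase (complex IV). Most subunits are encoded in the nucleus, repressed by glucose and activated through the Hap2/Hap3/Hap4/Hap5 transcription factor, while a few core subunits are encoded in mitochondrial DNA. The genes described here are 39 nuclear-encoded genes of this system, chosen by name from a table of 6347 features: 3 alternative NADH dehydrogenases, 4 subunits of succinate dehydrogenase, 9 of the bc1 complex, the main cytochrome c gene CYC1, 8 subunits of cytochrome c oxidase, 13 of ATP synthase and the ATP synthase inhibitor INH1. All 39 were found and all passed the filter on low values.

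The data come from D452-2 laboratory yeast carrying the plasmid pRS316 with *cdt-1*, a cellodextrin transporter gene of *Neurospora crassa* tagged with GFP at its C terminus. Strain NC carried the gene with its own codons and strain OPT a codon-optimized version, and both were sampled in mid-exponential growth. The medium and its carbon source are not given in the sources used here. There were 3 mRNA libraries of each strain, described as biological replicates, and all values below are mRNA levels. The 6 footprint libraries were not analysed here. Levels are normalized RPKM (reads scaled to gene length and to the size of the library), and the low values put the depth of a library at an estimated 23400000 to 43100000 reads. The transgene rows followed the strain labels, with the NC version at 506 to 567 RPKM in NC and listed at 0 in OPT, and the optimized version at 420 to 557 RPKM in OPT and listed at 0 in NC. NC replicate 3 stood apart for the genes described here: 36 of the 39 had their lowest level of the 6 libraries there, against 29.1% of the 5982 yeast features tested. Where leaving it out turned a direction or moved a value by over 1.5 times, the value without it is given for the genes described in full and for each enzyme.

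Respiratory mRNAs were abundant in both strains. In a whole culture, a lower level in every cell and fewer cells with the mRNA cannot be told apart. The 39 genes averaged 47.7 to 1126 RPKM over the 6 libraries, and 38 of them stood above 48.6 RPKM, the median of all tested features. Together they made up 1.97, 2.23 and 1.70% of all RPKM in NC replicates 1, 2 and 3 and 2.30, 2.23 and 2.17% in OPT replicates 1, 2 and 3. The strains overlapped in this share, since NC replicate 2 lay above OPT replicate 3.

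Subunit genes of the same enzyme differed in level, and so did the genes of the 3 separate NADH dehydrogenases. Among the complexes the span from lowest to highest gene was widest in the bc1 complex and narrowest in cytochrome c oxidase. The widest depends on the measure. The SD of the log2 mean levels was larger in succinate dehydrogenase, at 0.72, than in the bc1 complex, at 0.59. The mean levels per gene length spanned 6.38-fold among the 3 NADH dehydrogenase genes, 3.11-fold in succinate dehydrogenase, 3.73-fold in the bc1 complex, 3.31-fold in ATP synthase and 1.63-fold in cytochrome c oxidase. In ATP synthase the lowest level belonged to ATP20, which encodes a subunit needed for dimers of the enzyme, at 265 RPKM on average, and the next was 494 RPKM for ATP18. The gene lengths that the authors used are not given in the sources used here, and small genes such as COX9 and ATP18 are the most sensitive to that choice.

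**Figure D1:**
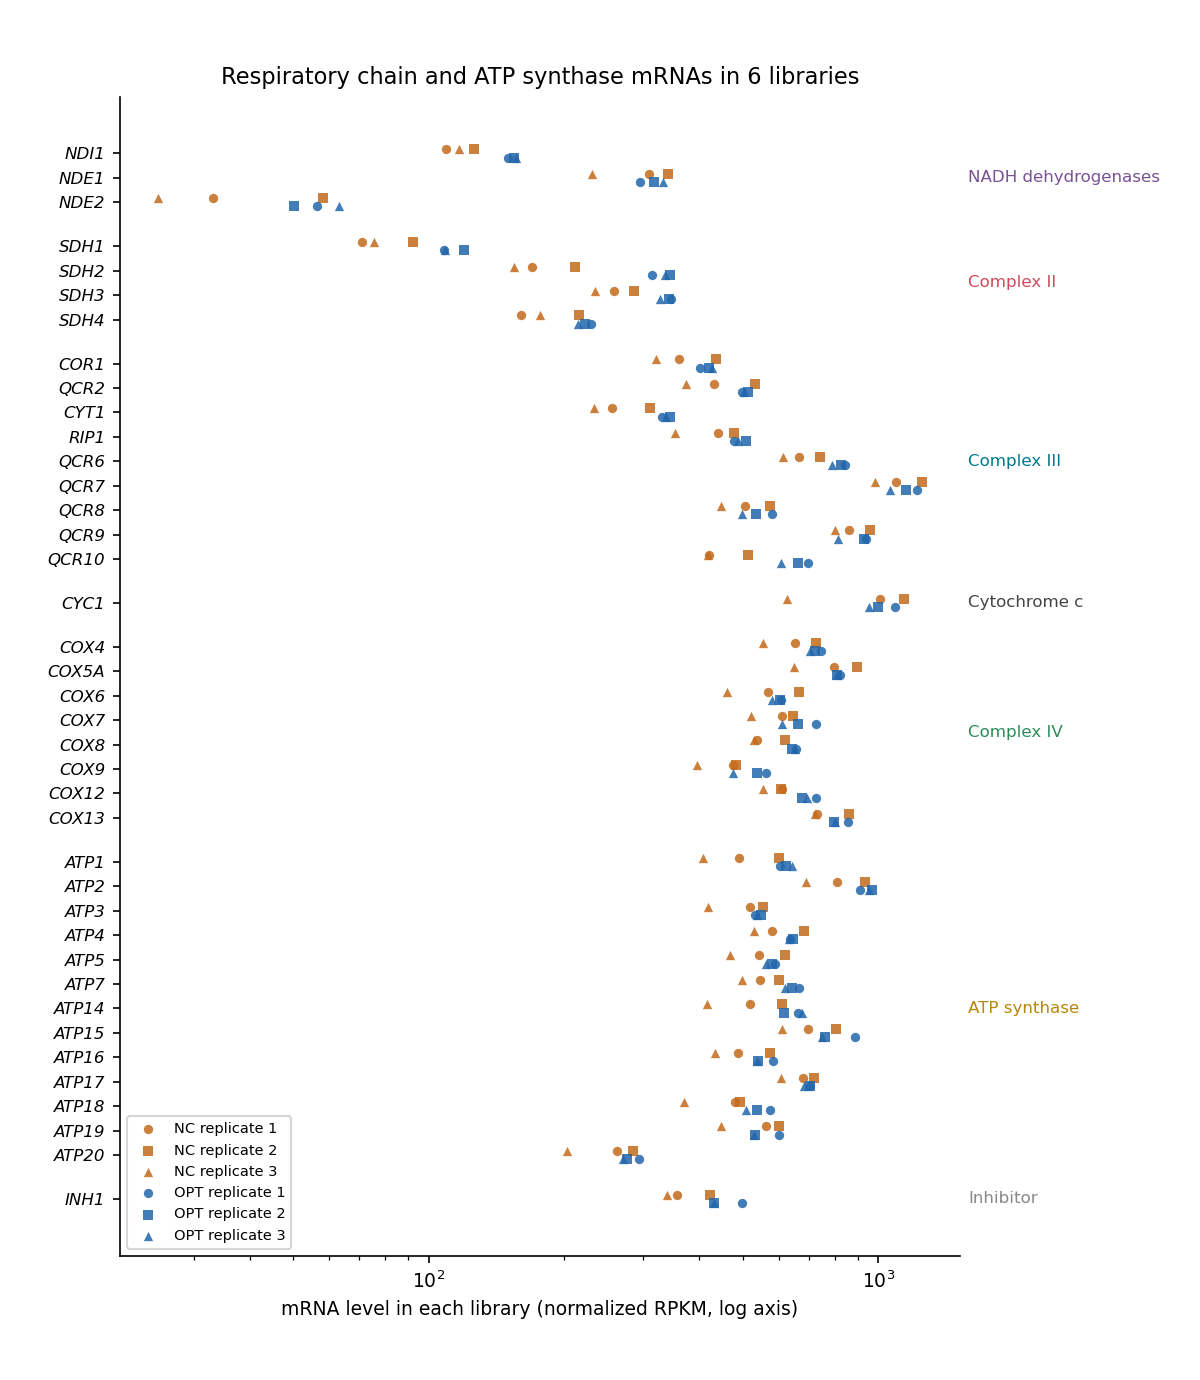
mRNA level of each of the 39 genes in the 6 libraries, on a log axis in normalized RPKM, with NC libraries in orange and OPT libraries in blue and a marker shape for each replicate. Levels run from NDE2, at 47.7 RPKM on average, to QCR7 at 1126 RPKM, and NC replicate 3 is the lowest point in 36 of the 39 rows. NC replicate 2 lies above the lowest OPT library in 24, or 61.5%, against 79.1% of all tested features.

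Between the strains, 5 of the 39 genes were higher in OPT and none was lower (limma on log2(RPKM + 1), adjusted p under 0.05 over all tested features). They were SDH1, SDH2 and SDH3 of succinate dehydrogenase, NDI1 and QCR10. Among all tested features 19.1% were called, 5.38% higher and 13.8% lower, so 12.8% of the 39 genes against 5.38% of all features were called higher. Of all 1145 calls 71.9% were lower in OPT, and with the library medians set equal 51.0% of 962 calls were. In 15 of the 39 genes, or 38.5%, the OPT libraries all lay above the NC libraries, against 13.1% of all features. In no member did they all lie below, against 27.6% of all features. All 39 fitted log2 fold changes were above 0, against 38.3% of those of all features. They ran from 0.03 to 0.90, with a median of 0.19 against -0.06 for all features. That common sign rested on NC replicate 3. Without that library 9 of the 39 were below 0 and the median was 0.09, against -0.08 for all features, although the same 5 genes were called. Without OPT replicate 1, 2 or 3 the calls numbered 2, 1 and 2, with 2.52, 2.24 and 3.09% of all features called higher. Without NC replicate 2 there were 11, with 5.8% of all features. SDH2 was among the calls each time. With quantile normalization 6 were below 0, with arrayWeights 8, and without OPT replicate 1 there were 2.

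**Figure D2:**
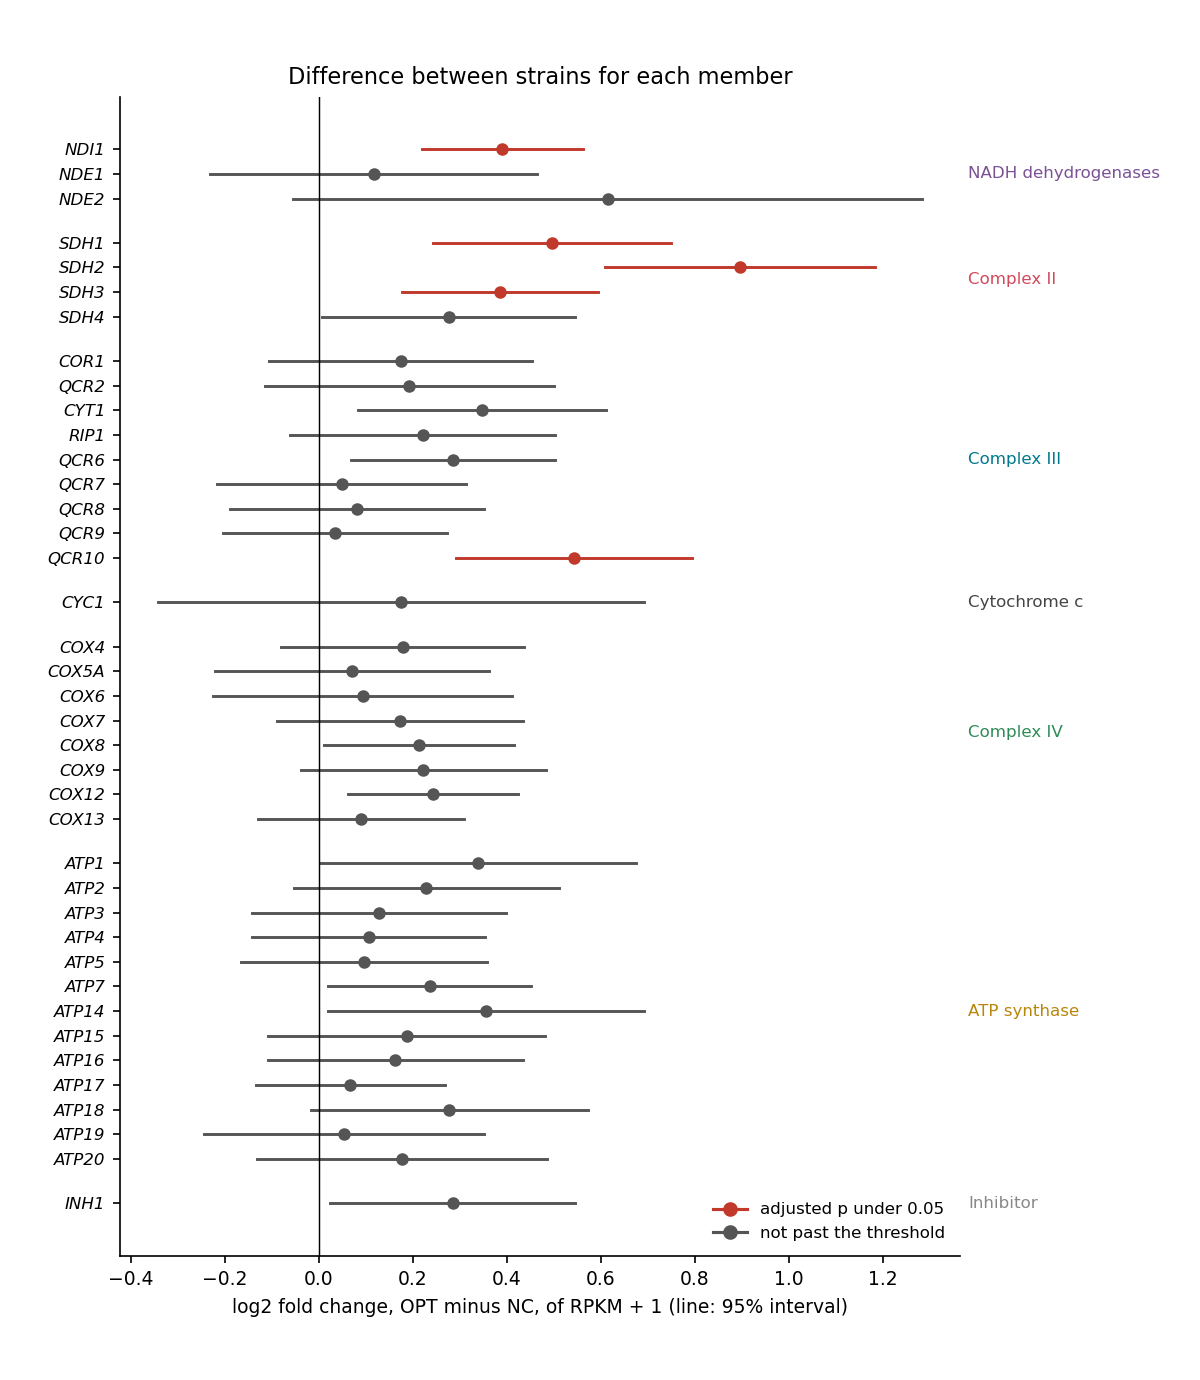
Log2 fold change, OPT minus NC, of each gene on the log2(RPKM + 1) scale, with its 95% interval from the limma fit and the 5 calls in red. All points lie right of 0 with the 6 libraries, but only the intervals of 14 genes lie wholly above 0, and SDH2 is the farthest right at 0.90.

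Succinate dehydrogenase was the enzyme with the most calls for its size, with 3 of its 4 subunit genes higher in OPT and a median log2 fold change of 0.44. This enzyme oxidises succinate to fumarate and so belongs to both the TCA cycle and the respiratory chain. SDH2, which encodes the iron-sulfur subunit (YLL041C, chromosome XII, 53131 to 53931 in R64), stood at 170, 212 and 155 RPKM in NC replicates 1, 2 and 3 and at 313, 343 and 336 RPKM in OPT. The lowest OPT library was well above the highest NC library. SDH2 rose from 179 ± 29.4 to 331 ± 15.8 RPKM (SD, n = 3), or by 0.90 on the log2 scale (standard error 0.12, 95% interval 0.61 to 1.18, adjusted p = 0.00521). Its call held in all 14 alternative settings, with an adjusted p of up to 0.0346 when a library was left out.

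The flavoprotein and 1 of the 2 membrane anchors also rose. SDH1, which encodes the FAD-binding catalytic subunit (YKL148C, chromosome XI, 169207 to 171129), stood at 71.2, 92.2 and 75.7 RPKM in NC and 108, 119 and 109 RPKM in OPT. Its groups did not overlap, and it rose by 0.50 on the log2 scale (standard error 0.11, adjusted p = 0.0220). SDH3, which encodes a membrane anchor subunit (YKL141W, chromosome XI, 179667 to 180263), stood at 258, 286 and 235 RPKM in NC and 345, 342 and 326 RPKM in OPT, again without overlap. It rose by 0.38 (standard error 0.09, adjusted p = 0.0266). The calls of SDH1 and SDH3 were weaker than that of SDH2: SDH1 lost its call without any 1 OPT library (adjusted p up to 0.0938), and SDH3 lost it without NC replicate 1 or any 1 OPT library (up to 0.108).

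SDH4, the other membrane anchor gene, stood at 161, 216 and 177 RPKM in NC and 229, 223 and 215 RPKM in OPT. Its highest NC library lay just above its lowest OPT library, and its log2 fold change of 0.28 did not pass (95% interval 0.01 to 0.55, adjusted p = 0.135), although it did without NC replicate 2 (adjusted p = 0.0306). The ratio of SDH2 to its partners was chosen after its values were seen and is given as a description. Divided by the mean of SDH1, SDH3 and SDH4 in the same library, SDH2 came to 1.04, 1.07 and 0.953 in the NC libraries, against 1.38, 1.5 and 1.55 in the OPT libraries. The 2 sets of ratios did not overlap, so in OPT the SDH2 mRNA exceeded the mean of the other 3 subunits by a wider margin than in any NC library.

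The paralogs of 2 subunit genes were higher in OPT as well. SHH4, a paralog of SDH4, stood at 41.7, 49.4 and 43.4 RPKM in NC and 76.8, 71.2 and 80.4 RPKM in OPT. It rose by 0.75 (standard error 0.08, adjusted p = 0.00297), a call that held in all 14 alternatives. SHH3, a paralog of SDH3, stood at 45.4, 58.1 and 36.1 RPKM in NC and 82.3, 79.6 and 82.5 RPKM in OPT. It rose by 0.82 (adjusted p = 0.0154), a call that ended without any 1 OPT library (up to 0.0617). SHH4 came to 22.8 to 26.0% of SDH4 in NC and to 31.9 to 37.4% in OPT, and SHH3 to 15.4 to 20.3% of SDH3 in NC and to 23.3 to 25.3% in OPT, so both ratios were higher in every OPT library than in any NC library.

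The paralog of SDH1 and the assembly factors gave a mixed picture. YJL045W, the paralog of SDH1, stood at 9.31 to 11.3 RPKM in NC and 9.80 to 10.6 RPKM in OPT (log2 fold change -0.05, adjusted p = 0.767). Without NC replicate 3 its log2 fold change was 0.01. Its ratio to SDH1 went the other way from those of SHH3 and SHH4, at 13.1, 11.6 and 15% in NC and 9.06, 8.24 and 9.73% in OPT, again without overlap. SDH6, listed as YDR379C-A, encodes an assembly factor of the enzyme. It stood at 65.0, 82.7 and 76.0 RPKM in NC and 119, 108 and 101 RPKM in OPT, a rise of 0.55 (adjusted p = 0.0159) that lost its call without OPT replicate 1 or 2 (up to 0.0675). The assembly factor genes SDH5, SDH7 and SDH8, listed as EMI5, ACN9 and FMP21, did not pass, with log2 fold changes of 0.16, -0.17 and 0.34.

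**Figure D3:**
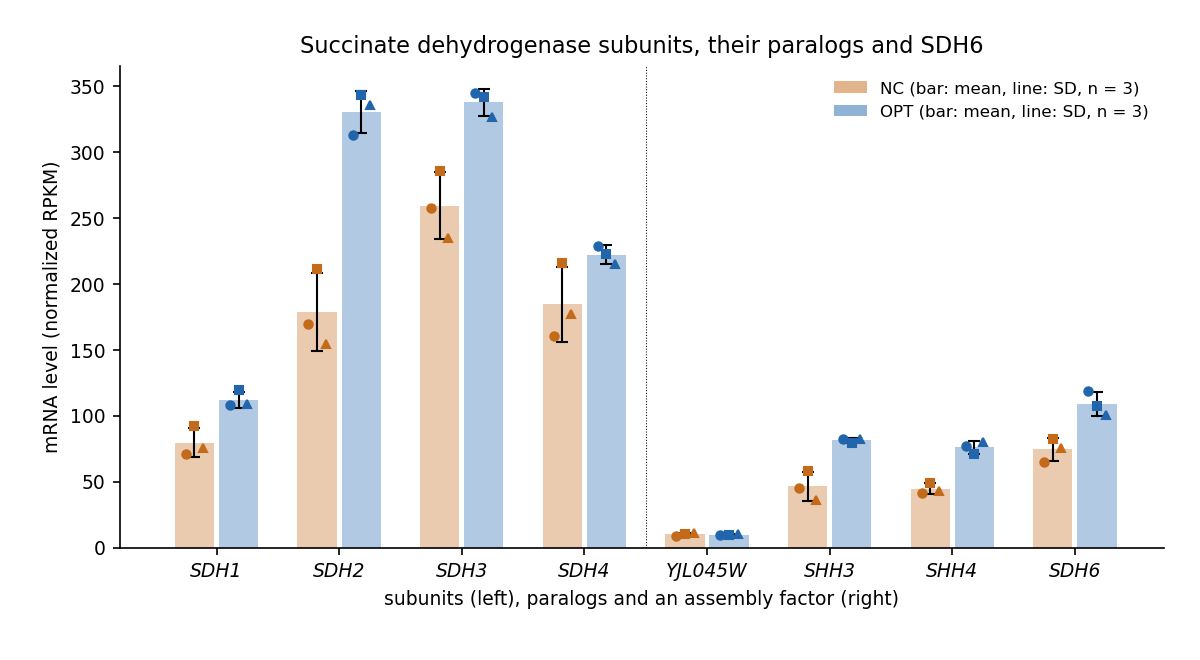
Levels of the succinate dehydrogenase subunit genes (left of the dotted line) and of 3 paralogs and the assembly factor SDH6 (right), as mean with SD and the 3 libraries of each strain, in normalized RPKM. SDH2 shows the widest gap, from 179 to 331 RPKM, and YJL045W is the lowest, at 10.5 RPKM in NC and 10.1 RPKM in OPT.

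Of the NADH dehydrogenases, the internal enzyme's gene was higher in OPT. NDI1 (YML120C, chromosome XIII, 28266 to 29807) stood at 109, 126 and 117 RPKM in NC and 150, 155 and 156 RPKM in OPT. The groups did not overlap and the replicates lay close together. NDI1 rose from 117 ± 8.41 to 154 ± 3.26 RPKM, or by 0.39 on the log2 scale (standard error 0.07, adjusted p = 0.0137), which did not pass without OPT replicate 2 or 3 (up to 0.0702).

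The 2 external enzymes' genes did not pass. NDE1, the more abundant, stood at 309, 341 and 231 RPKM in NC and 295, 317 and 332 RPKM in OPT (log2 fold change 0.12, adjusted p = 0.614), and without NC replicate 3 the value was -0.05. NDE2 stood at 33.2, 58.1 and 25.0 RPKM in NC and 56.4, 50.1 and 63.2 RPKM in OPT. NC replicate 2 lay inside the OPT range, and the log2 fold change of 0.61 had the widest 95% interval of the 39 genes, from -0.05 to 1.28 (adjusted p = 0.172). Without NC replicate 2 it passed, with an adjusted p of 0.0173, and without NC replicate 3 the log2 fold change was 0.35. NDE2 came to 10.7, 17 and 10.8% of NDE1 in NC and 19.1, 15.8 and 19.0% in OPT, with overlap between the strains.

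GUT2 feeds electrons to ubiquinone from glycerol 3-phosphate and was also higher in OPT. It rose from 59.8 ± 10.6 to 97.4 ± 9.73 RPKM, or by 0.70 on the log2 scale (adjusted p = 0.0152), and lost its call without OPT replicate 1 or 3 (up to 0.0589). DLD1 and CYB2, which encode lactate dehydrogenases that donate electrons to cytochrome c, did not pass, with log2 fold changes of -0.23 and 0.31 (adjusted p = 0.0547 and 0.146).

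In the bc1 complex, which passes electrons from ubiquinol to cytochrome c, only QCR10 of 9 genes passed the test. QCR10 encodes a small supernumerary subunit (YHR001W-A, chromosome VIII, 107826 to 108122). It stood at 421, 512 and 419 RPKM in NC and 697, 662 and 607 RPKM in OPT. Every OPT library was higher than every NC library. QCR10 rose from 451 ± 53.0 to 655 ± 45.5 RPKM, or by 0.54 on the log2 scale (standard error 0.11, adjusted p = 0.0159), and lost its call without OPT replicate 1 or 2 (up to 0.0724).

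The other bc1 genes had log2 fold changes of 0.03 to 0.35. CYT1, for cytochrome c1, stood at 256, 311 and 233 RPKM in NC and 331, 343 and 337 RPKM in OPT, and QCR6, for an acidic hinge subunit, at 667, 742 and 613 RPKM in NC and 843, 828 and 787 RPKM in OPT. Both pairs of groups were separate, but neither gene passed (log2 fold changes 0.35 and 0.29, adjusted p = 0.070 for each). They passed without NC replicate 2 (adjusted p = 0.0198 and 0.0484). RIP1, for the Rieske iron-sulfur protein, was barely separate, at 476.95 RPKM in NC replicate 2 and 477.09 RPKM in OPT replicate 1. Its log2 fold change was 0.22 (adjusted p = 0.234), or 0.10 without NC replicate 3.

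Several bc1 genes showed little difference. QCR7, the most abundant of all 39 genes, stood at 1094, 1250 and 983 RPKM in NC and 1219, 1151 and 1060 RPKM in OPT. NC replicate 2 was its highest library, and its log2 fold change was 0.05 with a 95% interval of -0.22 to 0.31, or -0.03 without NC replicate 3. Without that library the median of the 9 bc1 genes was 0.07 in place of 0.19. QCR8, QCR9 and the core subunit genes COR1 and QCR2 had log2 fold changes of 0.08, 0.03, 0.17 and 0.19, and all 4 overlapped between strains. NC replicate 2 was the highest library in COR1, QCR2 and QCR9 as well.

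CYC1, for cytochrome c isoform 1, spread the most among the abundant genes. It stood at 1010, 1139 and 625 RPKM in NC and 1088, 999 and 952 RPKM in OPT, giving 0.17 for its log2 fold change (standard error 0.22, adjusted p = 0.612). NC replicate 3 was far below the other 5 libraries, and without it the log2 fold change was -0.08. Its minor isoform gene CYC7, made mainly at low oxygen, came to 11.6, 18.6 and 35.8% of CYC1 in NC and 23.3, 19.6 and 21.1% in OPT, so the strains overlapped in this ratio too. CYC3, for the lyase that attaches heme to cytochrome c, rose from 111 ± 7.62 to 149 ± 3.60 RPKM (log2 fold change 0.42, adjusted p = 0.0105), and its call held in all 14 alternatives, with an adjusted p of up to 0.0499.

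None of the 8 cytochrome c oxidase genes passed, and their log2 fold changes lay in a narrow band of 0.07 to 0.24, with upper 95% limits of at most 0.48. COX5A, the aerobic isoform of subunit 5 and the most abundant, stood at 799, 896 and 649 RPKM in NC and 824, 809 and 808 RPKM in OPT. The OPT libraries lay between the NC libraries, and the log2 fold change of 0.07 was -0.06 without NC replicate 3. Without that library the median of the 8 genes was 0.08 in place of 0.17. COX9, the least abundant, stood at 474, 484 and 395 RPKM in NC and 564, 538 and 474 RPKM in OPT, with slight overlap (log2 fold change 0.22, adjusted p = 0.201, or 0.13 without NC replicate 3). COX8 and COX12, for small nuclear-encoded subunits, were the 2 genes of this enzyme without overlap, at log2 fold changes of 0.21 and 0.24 (adjusted p = 0.126 and 0.0662), and COX12 passed once library medians were set equal.

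The other members of this enzyme, COX4, COX6, COX7 and COX13, overlapped between strains, with log2 fold changes of 0.09 to 0.18. COX5B, the low-oxygen isoform of COX5A, came to 22.6, 28.3 and 41.5% of COX5A in NC and 29.4, 23.9 and 26.9% in OPT. The highest ratio was in NC replicate 3, where COX5A was lowest. COX26, for a small subunit found in supercomplexes of the bc1 complex and cytochrome c oxidase, was not among the 39 genes and did pass. It stood at 177, 238 and 204 RPKM in NC and 348, 315 and 293 RPKM in OPT, a rise of 0.63 (adjusted p = 0.0160) that lost its call without OPT replicate 1 or 2 (up to 0.0675).

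ATP synthase, the largest group, had no call among its 13 genes. Their log2 fold changes ran from 0.05 to 0.36 with a median of 0.18, adjusted p-values from 0.117 up, and no upper 95% limit above 0.69, so a doubling of any of them lay outside its interval. Without NC replicate 3 the median was 0.07, and ATP5 and ATP19 were below 0, at -0.01 and -0.07. ATP2, for the catalytic beta subunit and the most abundant, stood at 811, 932 and 689 RPKM in NC and 910, 968 and 953 RPKM in OPT, with NC replicate 2 inside the OPT range. Its log2 fold change was 0.23, and 0.12 without NC replicate 3. ATP20 stood at 263, 285 and 203 RPKM in NC and 294, 277 and 271 RPKM in OPT, again with overlap, and its log2 fold change was 0.18, or 0.03 without that library.

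The strains did not overlap in ATP1, ATP7, ATP14 and ATP18 of this enzyme. ATP1, for the alpha subunit, stood at 491, 602 and 407 RPKM in NC and 604, 624 and 644 RPKM in OPT (log2 fold change 0.34, adjusted p = 0.141, or 0.20 without NC replicate 3). ATP14, for subunit h of the peripheral stalk, stood at 517, 612 and 417 RPKM in NC and 664, 617 and 676 RPKM in OPT (0.36, adjusted p = 0.125, or 0.21 without that library). ATP18, for subunit i or j of the membrane part, stood at 481, 493 and 370 RPKM in NC and 573, 538 and 507 RPKM in OPT (0.28, adjusted p = 0.164, or 0.15 without it). In the first 2 of these NC replicate 2 lay within a few RPKM of the lowest OPT library, and ATP1 and ATP14 passed once that library was left out (adjusted p = 0.0388 and 0.0491).

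The remaining subunits of the catalytic head, the stalks and the membrane part were ATP3, ATP4, ATP5, ATP15, ATP16, ATP17 and ATP19. They overlapped between strains and had log2 fold changes of 0.05 to 0.19. INH1, for the protein that blocks ATP hydrolysis by the enzyme, stood at 357, 423 and 338 RPKM in NC and 498, 431 and 431 RPKM in OPT. Its groups were separate by a narrow gap, and its log2 fold change of 0.28 did not pass (adjusted p = 0.118). STF1, a related inhibitor gene, came to 106, 138 and 127% of INH1 in NC and 131, 131 and 142% in OPT.

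Across libraries, genes of the larger enzymes varied together. In NC replicate 3 all 9 bc1 genes, all 8 oxidase genes and all 13 ATP synthase genes had their lowest level. The median ATP synthase gene lay at -0.09, 0.11 and -0.29 in NC replicates 1, 2 and 3 and at 0.15, 0.07 and 0.04 in OPT replicates 1, 2 and 3, on the log2 scale relative to the mean of the 6 libraries. The oxidase genes followed the same order in NC, at -0.05, 0.07 and -0.28, and lay at 0.13, 0.08 and 0.02 in OPT. NC replicate 2 therefore stood within the OPT range for these enzymes, and the spread among NC libraries exceeded the gap between the strains.

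Succinate dehydrogenase did not show that overlap. Its median gene lay at -0.36, -0.04 and -0.32 in NC and at 0.21, 0.28 and 0.17 in OPT, so each OPT library lay above each NC library. The summed level of its 4 genes was 703 ± 89.8 RPKM in NC and 1003 ± 21.9 RPKM in OPT, while the 13 ATP synthase genes summed to 7118 ± 994 and 8047 ± 181 RPKM. Whether the 2 enzymes differed in their response was not tested.

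**Figure D4:**
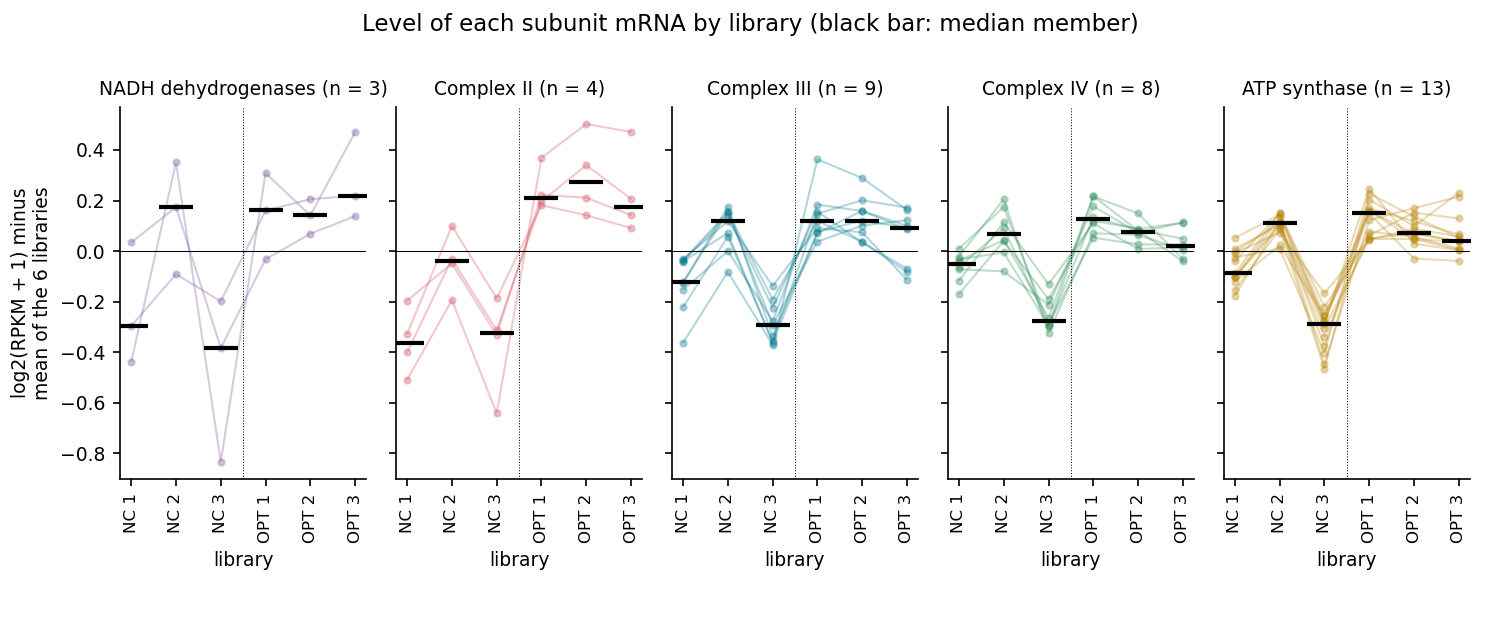
Level of each gene in each library as log2(RPKM + 1) minus its mean over the 6 libraries, in 1 panel for each enzyme, with thin lines joining the values of a gene and black bars at the median gene. In ATP synthase the median runs from -0.29 in NC replicate 3 to 0.15 in OPT replicate 1 with NC replicate 2 at 0.11, whereas in complex II all OPT medians lie above the highest NC median of -0.04.

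Genes around the respiratory chain were taken from 8 lists, of which 99 genes were tested. Of these, 8 were higher and 4 lower in OPT, against 5.38% and 13.8% of all features, and their median log2 fold change was 0.01. Among 48 assembly factors 4 rose and 1 fell, with a median of -0.02. Besides SDH6 and CYC3 the rises were COX19 and COA6, both needed for copper delivery to cytochrome c oxidase. COX19 stood at 45.5, 43.9 and 44.0 RPKM in NC and 60.6, 68.5 and 68.7 RPKM in OPT, a rise of 0.56 (adjusted p = 0.00412) that held in all 14 alternatives. COA6 rose from 124 ± 6.87 to 168 ± 12.4 RPKM (log2 fold change 0.43, adjusted p = 0.0138), a call that ended without OPT replicate 1 or 3 (up to 0.0575). INA22, listed as YIR024C and needed to assemble the peripheral stalk of ATP synthase, fell from 41.6 ± 0.867 to 35.9 ± 1.47 RPKM (-0.21, adjusted p = 0.0482). That call ended in 9 of the 14 alternatives.

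In the other lists calls were few. COQ2, an enzyme of ubiquinone synthesis, fell from 69.5 ± 3.04 to 51.7 ± 2.20 RPKM (log2 fold change -0.42, adjusted p = 0.00760) and was the only call among 11 genes of that pathway. PET54, which activates translation of a mitochondrial mRNA, fell from 64.9 ± 3.37 to 52.2 ± 1.81 RPKM (-0.31, adjusted p = 0.0200) and was the only call among 12 such activators. It lost its call with equal medians (adjusted p = 0.0606) as well as when NC replicate 2 or an OPT library was left out (up to 0.10). AAC3, the low-oxygen isoform of the ADP/ATP carrier, stood at 4.57, 5.12 and 5.55 RPKM in NC and 2.33, 2.10 and 2.44 RPKM in OPT, a fall of -0.88 (adjusted p = 0.00590). The call of COQ2 held in all 14 alternatives, and that of AAC3 in the 13 in which it was tested. The main carrier gene PET9 stood at 712 ± 129 and 825 ± 51.4 RPKM and did not pass (adjusted p = 0.304).

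None of the 7 transcription factor genes passed. HAP4, the regulated subunit of the Hap activator, stood at 91.4, 79.1 and 63.6 RPKM in NC and 92.4, 96.8 and 91.5 RPKM in OPT. The groups were barely separate, and NC replicate 3 was lowest, as for the subunit genes. The log2 fold change was 0.27 with a 95% interval of -0.03 to 0.58 (adjusted p = 0.178), and it was 0.14 without NC replicate 3. ROX1, the repressor of low-oxygen genes and the most abundant of the list, had a log2 fold change of 0.32 (adjusted p = 0.166). MOT3, another repressor of low-oxygen genes, and HAP1, a heme-responsive activator, had log2 fold changes of -0.56 and -0.24 (adjusted p = 0.0558 and 0.0589). In both, all OPT libraries lay below all NC libraries, and HAP2, HAP3 and HAP5 had log2 fold changes of 0.04, 0.29 and 0.15. Of the subunits encoded in mitochondrial DNA, 6 were in the table and only OLI1, for subunit 9 of ATP synthase, passed the filter. It stood at 0.28, 0.53 and 1.28 RPKM in NC and at 2.5 and 4.89 RPKM in OPT replicates 1 and 2, and was listed at 0 in OPT replicate 3 (adjusted p = 0.453). COX1 and COB showed the same split, with 1.77 and 2.63 RPKM for COX1 in OPT replicates 1 and 2 against 0.47 RPKM in OPT replicate 3. These libraries therefore give no measure of the mitochondrially encoded partners.

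**Figure D5:**
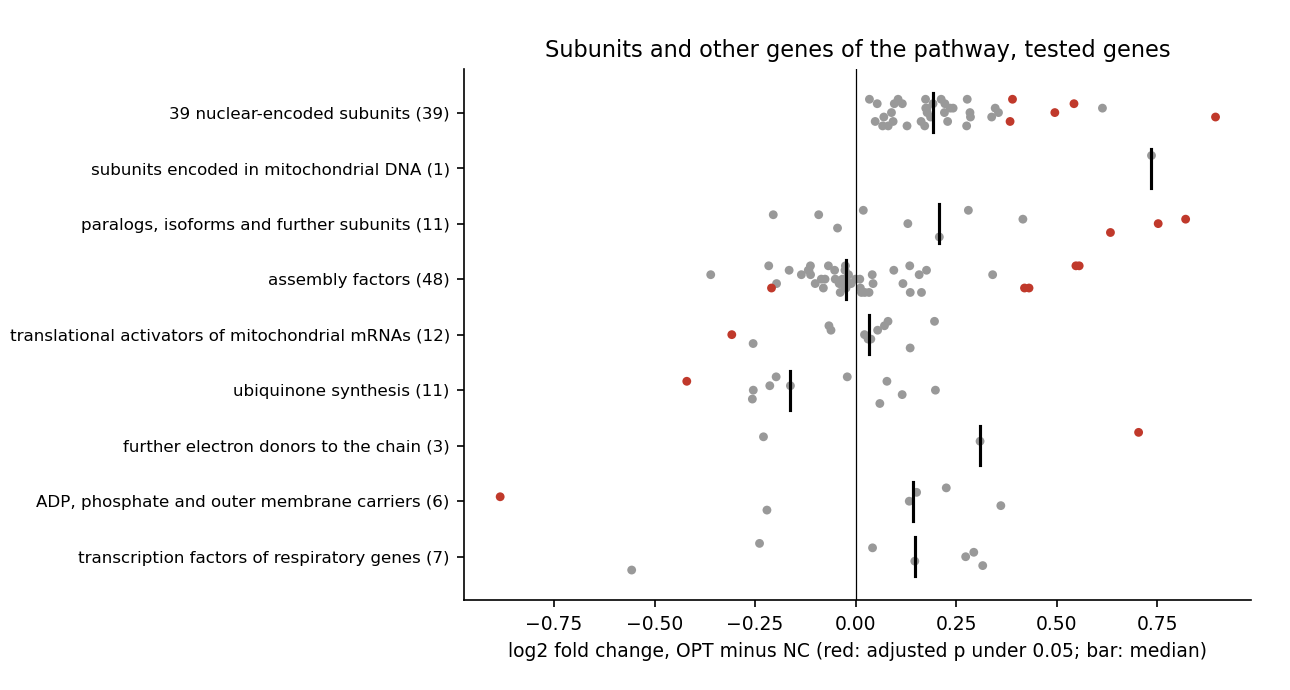
Log2 fold change, OPT minus NC, of the 39 genes and of the tested genes of 8 other lists, with the number tested in brackets, calls in red and a black bar at each median. The 39 genes lie right of 0 around 0.19, and the 48 assembly factors scatter around -0.02 with 4 calls higher and 1 lower.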

How the data were processed

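Per the labels' protocols, mRNA libraries came from total RNA prepared with TruSeq reagents. The authors deposited normalized RPKM for every gene. Each library sums to 999285 to 999421, so values behave as shares of a total. The submitters' processing notes name CASAVA 1.8.0, Bowtie, TopHat and build R64. Read counting, strand use, gene lengths and normalization are not given in the sources used here. A repeated row of ZWF1 was left out, leaving 6347 features, of which 6011 matched RefSeq R64, the source of coordinates. No member overlaps another RefSeq gene. Members and lists were chosen with earlier results of these data known.

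Depth was estimated from low values, which multiplied by gene length were whole reads within 0.15 in 97.9 to 100% of cases, against 30.8 to 36.1% at wrong steps. No count test was run.

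log2(RPKM + 1) was tested with limma 3.58.1 in R 4.3.3 (lmFit, eBayes with trend, two-sided, no covariates) over features averaging at least 1 RPKM. Benjamini-Hochberg adjustment ran over all features, with calls at 0.05. The *cdt-1* rows were fitted but not counted. The test was checked on simulated data with noise drawn separately for each gene. That check does not cover shifts of a library shared by many genes. Fold changes understate changes of low genes. Tables and figures used Python 3.11.15, pandas 2.3.3 and matplotlib 3.10.9.

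Values in each library are given for called members, the 6 uncalled members with the largest difference and no overlap, and the highest and lowest member of each enzyme. SDH4 is given as well, outside these rules. From other lists up to 4 calls are named, or the most abundant gene. HAP4 was always included. INA22 and the uncalled genes of these lists, HAP4, ROX1 and OLI1 excepted, were named after their values were seen. Settings varied were the scaling (quantile, equal medians), the filter (none, 10 RPKM), the pseudocount (0.1), the prior trend, arrayWeights, protein-coding genes alone, and each library left out in turn.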

Additional observations from a re-analysis of the deposited data

How the results depend on the processing

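The count of 5 genes called higher among the 39 was 8 with equal library medians, where COX12, CYT1 and QCR6 joined them and 7.87% of all features were called higher. Without OPT replicate 2 the count was 1, with 2.24% of all features called higher. It was 2 without OPT replicate 1 or 3, with 2.52 and 3.09% of all features. It was 11 without NC replicate 2, with 5.8%, and 5 without NC replicate 3, with 7.54%. The 5 genes stayed the same without NC replicate 3 and in the other alternatives with 6 libraries, and SDH2 was called in every alternative run. The median log2 fold change of the 39 genes was 0.09 to 0.29 over the alternatives, with 0.38 to 0.53 for succinate dehydrogenase, 0.07 to 0.31 for the bc1 complex, 0.06 to 0.25 for cytochrome c oxidase and 0.06 to 0.28 for ATP synthase. Calls in the other lists were 12 of 99 tested genes, against 19.1% of all features called. They numbered 5 without OPT replicate 1, against 8.07% of all features, and up to 17 with arrayWeights, against 28.2%. Leaving out a library gave 5 to 15 such calls, and the 15 came without NC replicate 2, against 14.2% of all features. No paired analysis was run because the labels state no pairing between libraries of the 2 strains. Equal replicate numbers were not taken as a pairing. The cause of these changes was not tested.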
